A study of Mus musculus with 16 samples.

Results

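The AMPA and kainate receptor subunits are 9 genes, Gria1 to Gria4 and Grik1 to Grik5, which were picked by their symbols out of the 36930 entries of the expression table. All 9 had reads in every one of the 16 pups and were among the 21183 genes tested. They encode the pore-forming chains of the AMPA receptors (4 genes) and of the kainate receptors (5 genes).

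Cortices of C57BL6 mouse pups were analyzed by mRNA sequencing at the age of 7 days, in 8 Avil-ChR2 and 8 ChR2-flfl pups. Both groups carried the floxed ChR2/td-Tomato construct in the Rosa26 locus, in which a STOP codon flanked by loxP sites precedes the light-gated channel channelrhodopsin-2. Avil-ChR2 pups also carried Cre under the advillin promoter, which is known for its activity in peripheral sensory neurons, whereas the ChR2-flfl controls were Cre-negative litter mates. All pups of both groups were placed in blue light for 1 h daily from postnatal day 1 to 5, so that controls received the light too. The comparison was designed to ask how the cortical transcriptome differs after repeated activation of nociceptors in early life. No Avil-ChR2 pups without light were sequenced. Effects of the activation and of carrying Cre and expressing ChR2 therefore cannot be told apart. According to the labels, the groups held 3 male and 5 female Avil-ChR2 pups and 4 male and 4 female ChR2-flfl pups. For Avil-ChR2 replicate 4, female by its label, a supplementary list has the other sex, and the label was used here. The labels do not tell which pups shared a litter, and litter could not enter the comparison.

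Glutamate acts in the cortex on AMPA, kainate and NMDA receptors. AMPA receptors are tetramers of GluA1 to GluA4 and carry the fast excitatory current. A receptor that contains edited GluA2, the product of Gria2, passes little calcium. Kainate receptors are built from GluK1 to GluK3, which can form channels on their own, and from GluK4 and GluK5, which need a partner of the first kind. They act before and behind the synaptic cleft and adjust transmitter release and excitability. The first postnatal weeks are a time in which the subunit make-up of glutamate receptors in the cortex is known to shift.

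The gene family shares a short pore loop, and its best known site is the codon at which the RNA editing enzyme ADAR2 can turn glutamine into arginine in Gria2, Grik1 and Grik2. The coding sequence around this codon is shown for all members, because it shows how close the genes are to each other and what the read counts cannot resolve. The stretches are 63 bases of spliced coding sequence of GENCODE transcripts on GRCm38, read 5′ to 3′ on the strand of the gene, with the Q/R codon in capitals.
Gria1: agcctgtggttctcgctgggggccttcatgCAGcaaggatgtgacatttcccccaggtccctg
Gria2: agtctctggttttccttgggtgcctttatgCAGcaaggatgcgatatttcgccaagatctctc
Gria3: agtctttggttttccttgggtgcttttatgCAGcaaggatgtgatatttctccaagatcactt
Gria4: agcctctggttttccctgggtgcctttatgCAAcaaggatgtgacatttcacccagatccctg
Grik1: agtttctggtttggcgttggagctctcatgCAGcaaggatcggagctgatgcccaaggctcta
Grik2: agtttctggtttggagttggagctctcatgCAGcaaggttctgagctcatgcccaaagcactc
Grik3: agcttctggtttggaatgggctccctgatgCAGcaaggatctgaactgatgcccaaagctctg
Grik4: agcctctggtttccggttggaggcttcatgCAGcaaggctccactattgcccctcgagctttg
Grik5: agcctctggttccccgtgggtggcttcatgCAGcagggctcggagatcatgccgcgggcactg

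All 9 genes have a glutamine codon here in the genome. It is CAG in 8 of them and CAA in Gria4. In Gria2 the codon lies at chr3:80706911-80706913 on the minus strand, in exon 11 of 16 of the transcript. In Grik1 it lies at chr16:87940542-87940544 in exon 13 of 18, and in Grik2 at chr10:49244329-49244331 in exon 13 of 17, both on the minus strand. The stretch ran over an exon border in all genes but Grik4 and Grik5. Gria2 and Gria3 had 57 of 63 bases in common, and Grik1 and Grik2 had 56 of 63. AMPA genes had 38 to 44 bases in common with kainate genes. Within the kainate family, Grik4 stood as far from Grik1 and Grik2 (39 of 63 each) as AMPA genes did. The deposited values count reads per gene and hold no base calls, so that the edited share of Gria2, Grik1 or Grik2 was not measured.

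The members share little sequence of the length of a read. Of all 75-base stretches of the longest transcript, the length of a read, none was shared with another gene except 10 of 9350 in Grik2 (0.107%). At 50 bases, the shortest read that was aligned, the shared part was at most 0.448% (Grik3). In the deposited coordinates on GRCm38, Gria1 spans chr11:57011571-57330244 (plus strand), Gria2 chr3:80684935-80803204 (minus), Gria3 chrX:41401119-41678601 (plus) and Gria4 chr9:4417893-4796247 (minus). The kainate genes are Grik1 at chr16:87895897-88290602 (minus), Grik2 at chr10:49094842-49789250 (minus), Grik3 at chr4:125490709-125714173 (plus), Grik4 at chr9:42520411-42945135 (minus) and Grik5 at chr7:25009849-25072499 (minus). Grik2 is the longest with 694409 bases and Grik5 the shortest with 62651 bases. Of the entries that overlap a member, 9 are listed without a value in all pups. Gm36861, on the opposite strand at the end of Grik5, reached at most 0.291 CPM.

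Depth was 47791532 to 48711134 reads per pup in Avil-ChR2 and 30549126 to 48707429 in ChR2-flfl, where replicate 3 had by far the fewest. The least abundant member, Grik4, still had 616 to 1113 reads per pup, and Gria2 had 18206 to 30804. Avil, the gene whose promoter drives Cre, had 1.07 ± 0.199 CPM in ChR2-flfl and 39.7 ± 2.89 CPM in Avil-ChR2 (SD, n = 8 each), a log2 difference of 5.23 (SE 0.091, limma adjusted p 4.17e-19). The tissue carried the markers of cortical excitatory neurons, with Slc17a7 at 469 ± 42.9 CPM in ChR2-flfl (SD, n = 8), whereas markers of choroid plexus summed to at most 6.53 CPM in a pup. Pup numbers form a run from 26 to 33 and a run from 35 to 42, each with 4 pups per genotype, and the labels do not say what the runs stand for. Genes with any read numbered 23914 to 24262 in the early run, except 23246 in the shallower ChR2-flfl replicate 3, and 23379 to 23583 in the late run.

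Among all subunits, Gria2, Gria1 and Grik5 were the most abundant per length. In CPM per kb of the longest transcript, the level over the 16 pups was 55.8 for Gria2, 50.9 for Gria1 and 50.8 for Grik5. Those ranges overlapped, and Gria1 exceeded Grik5 in 8 of 16 pups. Gria3 (26.3), Grik3 (23.3) and Gria4 (16.7) followed, with overlap between neighbours, although Grik3 was above Gria4 in 16 of 16 pups. Grik1 (10.4), Grik2 (6.51) and Grik4 (3.41) came last, and their ranges did not touch each other or that of Gria4. Grik5 was 1.93 times as high as Gria3, and no pup bridged this gap.

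This order depends in part on the length used. With the union of all exons, Gria1 came first with 46.7 CPM per kb, Grik5 next with 39.9 and Gria2 after it with 37.3. Gria3 was then at 13.9, below Grik3 (23.3) and Gria4 (14.4). Grik1, Grik2 and Grik4 kept the last places with 5.65, 4.63 and 3.37.

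**Figure D1:**
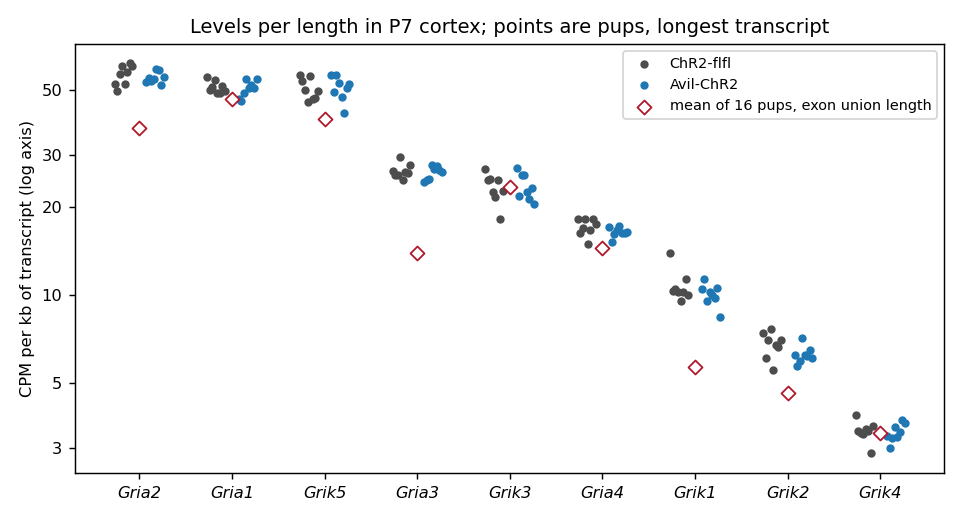
Level of each subunit in CPM per kb of transcript on a log axis, with 1 point per pup (8 ChR2-flfl in grey, 8 Avil-ChR2 in blue) for the longest transcript and open diamonds for the mean of 16 pups with the exon union length. Gria2, Gria1 and Grik5 form the upper group at about 50.8 to 55.8, Grik4 is lowest at 3.41, and the points of the genotypes overlap in every column.

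The make-up of the receptor families differed between the genotypes by less than the spread between pups. Of the AMPA sum per kb of the longest transcript, Gria2 made up 37.3% ± 1.74 in ChR2-flfl and 37.3% ± 1.28 in Avil-ChR2 (SD, n = 8 each). Gria1 held 33.9% ± 1.47 and 34.0% ± 1.19, Gria3 17.5% and 17.6%, and Gria4 11.3% and 11.1%. Of the kainate sum, Grik5 alone held 53.4% ± 2.44 and 54.1% ± 2.03, so that GluK5, which needs a partner, was the main kainate transcript. Grik3 held 24.5% and 24.9%, Grik1 11.3% and 10.7%, Grik2 7.16% and 6.67%, and Grik4 3.61% and 3.63%. The AMPA sum was 1.60 ± 0.166 times the kainate sum in ChR2-flfl and 1.59 ± 0.164 times in Avil-ChR2. In bulk cortex, fewer cells of a type and less RNA per cell cannot be told apart.

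No AMPA or kainate subunit passed the test for a difference between the genotypes. Of the 9 genes, 0 passed an adjusted p under 0.05 in limma, against 2 of 21183 genes in all (0.00944%). At an unadjusted p under 0.05, the count was also 0 of 9, where all genes gave 5.41%, made up of 3.46% lower and 1.95% higher in Avil-ChR2. Seen by sign alone, 7 members were lower and 2 higher in Avil-ChR2. The median log2 difference, Avil-ChR2 minus ChR2-flfl, was -0.023 over the members and 0.0020 over all genes. Values of the genotypes overlapped for all 9 members, and they did not overlap in 0.0283% of all genes. The smallest p that an exact permutation of 8 against 8 pups can reach is 0.00016, and exact p-values are given here without adjustment, beside limma values adjusted over all genes.

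**Figure D2:**
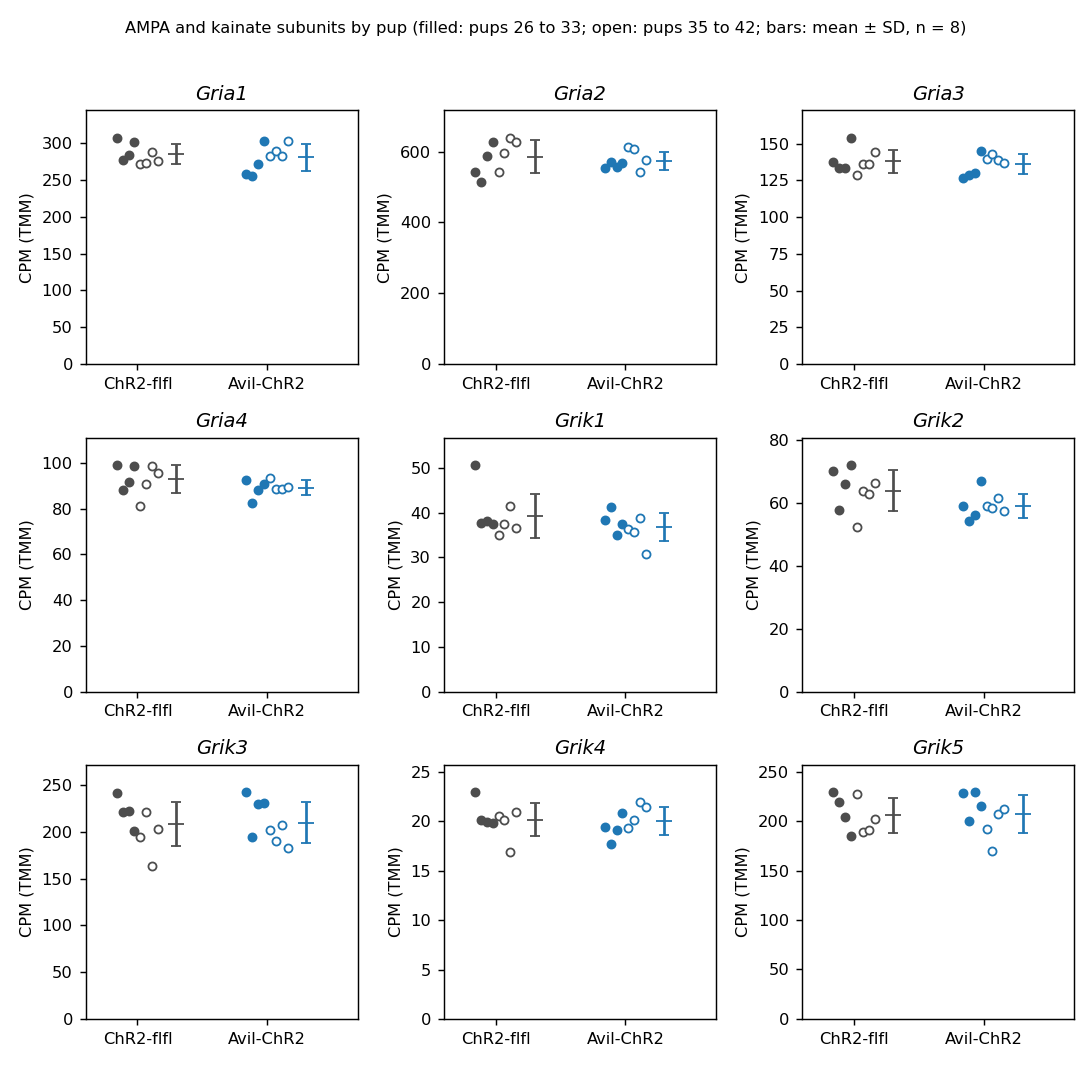
CPM of each subunit by pup, with axes that start at 0, for 8 ChR2-flfl (grey) and 8 Avil-ChR2 (blue) pups, filled for pups 26 to 33 and open for pups 35 to 42, with bars for mean ± SD. In every panel the ranges of the genotypes overlap, and in the Grik3 panel 4 of the 8 open points lie below every filled one.

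Gria2 encodes GluA2, the subunit that sets calcium permeability. In ChR2-flfl its lowest, median and highest values were 514, 593 and 639.6 CPM. In Avil-ChR2 they were 541, 569 and 614 CPM. The Avil-ChR2 pups were nested within the range of the controls. The log2 difference was -0.027 (SE 0.043, 95% interval -0.12 to 0.063, limma adjusted p 0.983), and the exact permutation p was 0.566.

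Gria1 encodes GluA1, which is added to synapses in long-term potentiation. ChR2-flfl pups ranged from 272 to 307 CPM with a median of 280.4 CPM. Avil-ChR2 pups ranged from 255 to 302 CPM with a median of 282 CPM. Of the Avil-ChR2 pups, 3 lay below the lowest control, whereas the medians were close. The log2 difference was -0.023 (SE 0.038, 95% interval -0.10 to 0.057, limma adjusted p 0.985, exact permutation p 0.585). In pups 26 to 33 alone it stood at -0.11, and among pups 35 to 42 at 0.063.

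Gria3 and Gria4 encode the remaining AMPA chains. Gria3, on the X chromosome, lay at 129, 136 and 154 CPM in ChR2-flfl (lowest, median, highest) and at 127, 138 and 145 CPM in Avil-ChR2. Gria4 lay at 81.2, 93.6 and 99.1 CPM in ChR2-flfl and at 82.4, 88.9 and 93.4 CPM in Avil-ChR2. For Gria4, 7 of 8 Avil-ChR2 pups were below the control mean and 4 control pups lay above all Avil-ChR2 pups, whereas the lowest value of all was a control. The log2 difference of Gria3 was -0.019 (SE 0.037, exact permutation p 0.624). That of Gria4 was -0.058 (SE 0.038, 95% interval -0.14 to 0.021, limma adjusted p 0.945, exact permutation p 0.17).

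Grik2 encodes GluK2, the kainate subunit of many principal neurons, and had the largest difference of the 9 members. ChR2-flfl pups had 52.3, 64.8 and 72.0 CPM (lowest, median, highest). Avil-ChR2 pups had 54.1, 58.5 and 67.0 CPM. Of the Avil-ChR2 pups, 7 of 8 were below the control mean, but the lowest pup of all was ChR2-flfl replicate 5. The log2 difference was -0.11 (SE 0.056, 95% interval -0.23 to 0.0065), or -7.34%, with an unadjusted limma p of 0.0628, an adjusted p of 0.911 and an exact permutation p of 0.0985. When 1 pup was left out, it ranged from -0.15 to -0.084. The lowest p came without ChR2-flfl replicate 5 (-0.15, limma p 0.0048, adjusted p 0.549). Pups 26 to 33 gave -0.17 and pups 35 to 42 gave -0.050.

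Grik1 encodes GluK1, known from interneurons and from early postnatal cortex. Its values were 35.0, 37.6 and 50.6 CPM in ChR2-flfl, and 30.8, 36.9 and 41.3 CPM in Avil-ChR2. The highest control, replicate 1, stood apart, and the medians were close. The log2 difference was -0.096 (SE 0.066, 95% interval -0.23 to 0.041, limma adjusted p 0.945, exact permutation p 0.236), and it was -0.042 without ChR2-flfl replicate 1.

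Grik3 encodes GluK3, a subunit of low glutamate affinity. ChR2-flfl pups lay at 163, 212 and 242 CPM, and Avil-ChR2 pups at 183, 205 and 242 CPM. The ranges of the genotypes overlapped. The log2 difference was 0.012 (SE 0.070, limma adjusted p 0.994, exact permutation p 0.882).

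Grik4 and Grik5 encode GluK4 and GluK5, the high-affinity chains. Grik4 lay at 16.9, 20.2 and 22.9 CPM in ChR2-flfl and at 17.7, 19.8 and 22.0 CPM in Avil-ChR2, with a log2 difference of -0.011 (SE 0.053, exact permutation p 0.842). Grik5 lay at 185, 203 and 229 CPM in ChR2-flfl and at 170.2, 209.8 and 229 CPM in Avil-ChR2, with a log2 difference of 0.0071 (SE 0.058, exact permutation p 0.916). The lowest and the highest pup were both controls for Grik4 and both Avil-ChR2 for Grik5, and the limma adjusted p was 0.993 and 0.995.

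The intervals limit how large a missed change could be in the fit of all 16 pups without covariates. For the AMPA genes, the 95% interval reached at most -9.14% (Gria4) and 4.46% (Gria2), in Avil-ChR2 relative to ChR2-flfl. For the kainate genes it reached -14.9% (Grik1), -14.5% (Grik2) and 11.6% (Grik3). These limits do not hold within a run of pup numbers or with a covariate. For Gria1, the log2 differences of -0.11 in pups 26 to 33 and 0.063 in pups 35 to 42 lay outside its interval of -0.10 to 0.057. In simulated data of 21183 genes and 16 pups, with independent normal noise, 200 genes were changed at once. At an adjusted p under 0.05, 60% of those changed by 0.25 on the log2 scale were recovered, and 89.5% at 0.5. In the real data 2 of 21183 genes passed, so that a member changed on its own would face a stricter cutoff. These rates therefore do not give the chance of detecting a change in a single member.

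Grin2b, the NMDA receptor subunit GluN2B of the immature cortex, is given for comparison as the gene with the smallest p among the ionotropic glutamate receptor genes examined. It was chosen with its value known, so that its difference is a description. It had 771 ± 119 CPM in ChR2-flfl and 608 ± 36.9 CPM in Avil-ChR2 (SD, n = 8 each), a log2 difference of -0.33 that did not pass the adjustment over all genes (limma adjusted p 0.612). Grin2a was at -0.15 (adjusted p 0.847) and Grin1, the obligatory NMDA subunit, at 0.018. The 95% intervals of all 9 members lay wholly above the estimate of -0.33. The interval of Grin2b itself was -0.48 to -0.18, and those of Grik1 and Grik2, which began at -0.23, overlapped it. With the length slope explained below in the fit, Grin2b was at -0.24. Whether a member differed from Grin2b was not tested.

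**Figure D3:**
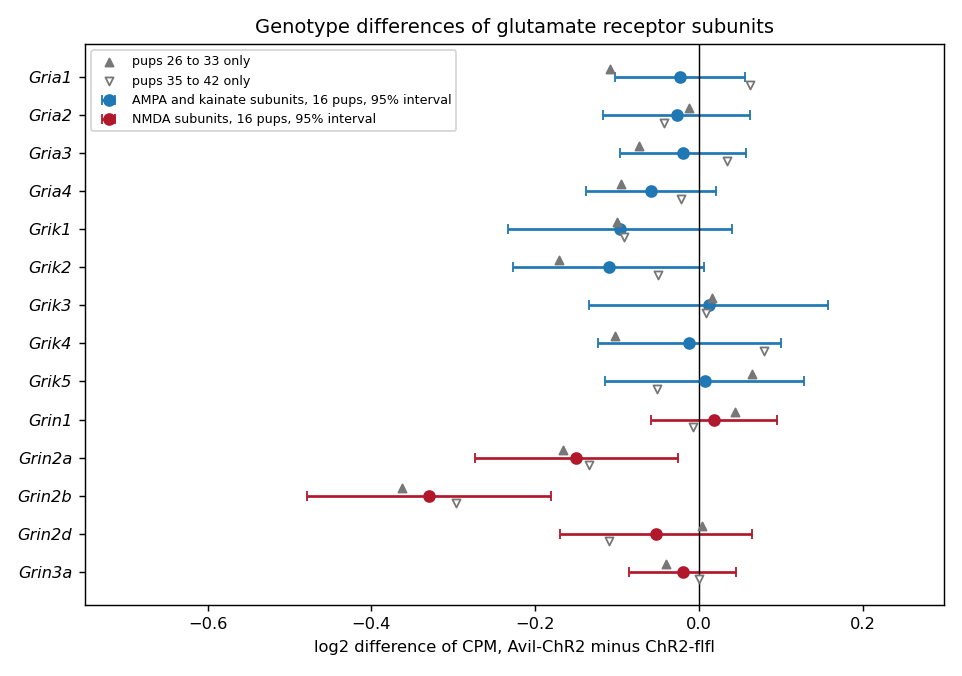
Log2 difference of CPM, Avil-ChR2 minus ChR2-flfl, with 95% interval over 16 pups for the 9 AMPA and kainate subunits (blue) and for NMDA subunits above 5 CPM (red), with triangles for the difference within each run of pup numbers. All blue intervals include 0 and lie wholly above the Grin2b estimate of -0.33, but those of Grik1 and Grik2 overlap the Grin2b interval (-0.48 to -0.18). For Gria1, Gria3, Grik4 and Grik5 the triangles lie on opposite sides of 0.

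Partner proteins of the receptors were followed in 6 lists of 36 genes, of which 33 were tested and 0 passed an unadjusted p under 0.05, where the share of all genes was 5.41%. By sign, 15 were lower and 18 higher, against 10298 and 10885 of all genes, with a median log2 difference of 0.0054. Of the auxiliary subunits of AMPA receptors, which set gating and surface delivery, 13 were tested. The most abundant were Cnih2 (217 against 223 CPM in ChR2-flfl and Avil-ChR2), Shisa7 (142 against 138 CPM) and Cacng7 (106 against 109 CPM). All 4 factors of AMPA receptor assembly had log2 differences of at most 0.025, with Frrs1l at 112 against 113 CPM. Each of these differences was smaller than the SD between pups of a genotype.

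Neto1 and Neto2, the auxiliary subunits of kainate receptors, had log2 differences of 0.0054 and -0.027, at 167 and 231 CPM over all pups. C1ql3, a secreted organizer that binds kainate receptors, had 62.2 and 63.0 CPM. Of the trafficking and anchoring proteins, 7 were tested, and Nsf, the ATPase that binds GluA2, had 420.0 against 435 CPM.

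RNA editing enzymes are of interest because of the Q/R codons shown above. Adarb1, which encodes ADAR2, had 161.3 ± 6.55 CPM in ChR2-flfl and 160.2 ± 5.09 CPM in Avil-ChR2, a log2 difference of -0.0091 (SE 0.028, limma adjusted p 0.99). Adar had 172 and 169.9 CPM. Adarb2, whose product binds RNA and has no known editing activity, had 38.1 ± 2.95 and 35.8 ± 1.49 CPM, a difference of -0.088 (SE 0.043, unadjusted p 0.0536, adjusted p 0.911). Prrt1 and Nptxr of these lists are listed without a value in all 16 pups, as is the microglial marker P2ry12, so that a gene without value need not be a silent gene. Epb41l1 was not found under this symbol.

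Markers of cell types were compared in the same fit. In 12 lists of neuronal, glial, vascular and regional markers, Slc17a7 (0.11 higher, p 0.0304) and Ttr (1.33 higher at 0.118 and 0.319 CPM, p 0.0491) were the genes at an unadjusted limma p under 0.05, and none passed the adjustment. The summed inhibitory neuron markers lay at 275 to 311 CPM in ChR2-flfl and 282 to 321 CPM in Avil-ChR2. By sign, several lists were one-sided, where 10298 of all 21183 genes were lower in Avil-ChR2. All 6 oligodendrocyte lineage markers and all 4 microglial markers tested were higher, and the 2 blood markers tested were lower. All 5 markers listed for hippocampus were lower, by a median of 0.093 on the log2 scale, which is the value of Prox1. Over all pups, Zbtb20 and Prox1 had 29.6 and 16.9 CPM, whereas Lct, Dsp and Spink8 had only 2.50, 1.25 and 0.496 CPM. The sums of all 5 markers, mostly Zbtb20 and Prox1, were 47.9 to 59.8 CPM in ChR2-flfl and 48.0 to 53.3 CPM in Avil-ChR2. With the length slope in the fit, their median difference was -0.025, Prox1 turned to 0.034 and Slc17a7 was at 0.040. Hippocampus is a tissue with high kainate receptor levels. Whether hippocampal tissue was admixed, and whether it had a part in the values of Grik1, Grik2 and Grik4, was not tested.

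Between the runs of pup numbers, Grik3 had the largest difference of the members. Grik3 had 194.5 to 242 CPM in the early run and 163 to 221 CPM in the late run, with means of 223 ± 17.5 and 196 ± 17.4 CPM (SD, n = 8 each). The late run was lower by a log2 difference of -0.19 (SE 0.056, exact permutation p 0.00839). In limma, 2649 of 21183 genes had an unadjusted p under 0.05 between the runs. With adjustment over all genes in limma, the p of Grik3 was 0.163. Of the 9 members, 0 passed, against 26 of 21183 genes (0.123%). The difference was -0.20 with sex in the fit and -0.15 with the length slope explained below. Grik1 and Grik5 were both at -0.11 and Gria2 at 0.069 (limma adjusted p 0.49, 0.443 and 0.52). With the length slope in the fit, Grik1 was at -0.18 (limma p 0.0095, adjusted p 0.364), Grik5 at -0.029 and Gria2 at 0.0088. Grik2 was then at -0.12 (limma p 0.0448, adjusted p 0.524). With sex in the fit, Grik1 was at -0.16 (limma p 0.0133, adjusted p 0.287) and Grik5 at -0.13 (limma p 0.0374, adjusted p 0.38).

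Of the members, 0 of 9 passed the test for a difference between the sexes, with limma adjusted p-values of 0.988 and above, and of all genes 0.0425% passed. The genotype difference of Gria1 differed between the runs by 0.17 (SE 0.069, unadjusted limma p 0.0234), which did not pass the adjustment over all genes (0.9998). It was the 1 member of 9 with an unadjusted p under 0.05 for the interaction with run, where all genes gave 3.04%, and 0 of 9 had one for the interaction with sex, where all genes gave 4.31%.

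The members varied with each other from pup to pup. Deviations of log2 values from the genotype means were compared over the 16 pups, where each pup is 1 library and all genes share its scaling, and correlations are given as descriptions. The strongest relation with a negative sign was that of Gria2 with Grik5 (r = -0.76, rho = -0.81). Pups 26 to 33 gave -0.82 and pups 35 to 42 gave -0.73, with deviations taken from the means of genotype and run. Pups with much Gria2, such as ChR2-flfl replicate 7 with 639.6 CPM, had little Grik5 (191 CPM), and ChR2-flfl replicate 2 had 514 and 219 CPM.

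Gria4 and Grik2 varied together (r = 0.79, and 0.81 and 0.80 within the runs), and so did Gria3 and Grik2 (r = 0.72, and 0.76 and 0.82 within the runs). Gria1 with Gria3 had r = 0.69, but 0.78 in the early run and 0.013 in the late run. AMPA genes were positively related in 6 of 6 pairs (median r 0.53) and kainate genes in 8 of 10 (median r 0.31). Between the families, 10 of 20 pairs were positive, with a median of -0.031. The share of positive pairs over all genes was not calculated, so that these counts do not show that a family varies as a unit. Grik2 had r between 0.36 and 0.79 with the 4 AMPA genes, and 0.34, 0.30 and 0.32 with Grik1, Grik3 and Grik4. Its relation with Gria1 (r = 0.61) was 0.85 in the early run and 0.058 in the late run.

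**Figure D4:**
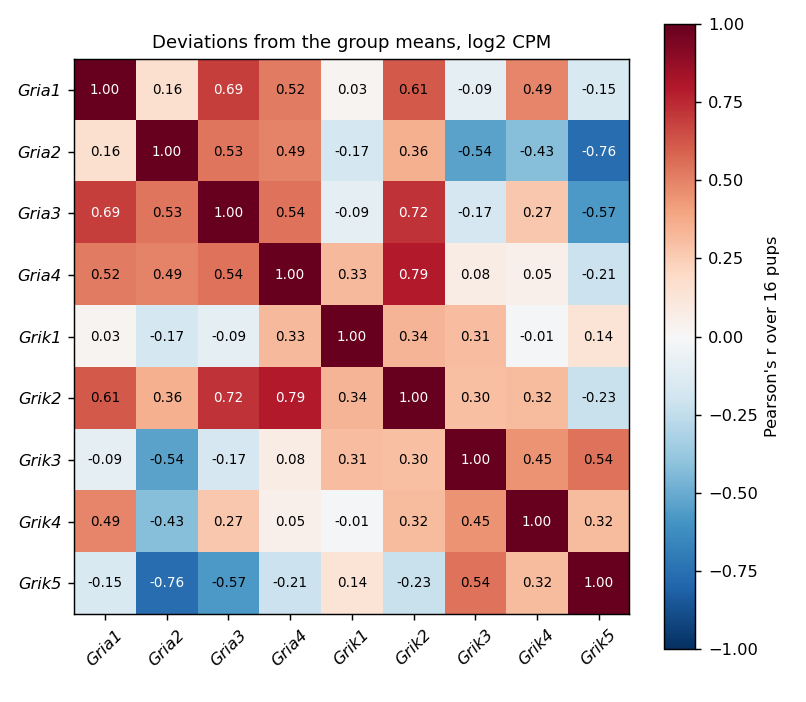
Pearson's r over 16 pups between the log2 deviations of each pair of subunits from their genotype means, with color from -1 (blue) to 1 (red). The AMPA block at the upper left is positive throughout, Grik2 has r of 0.61 to 0.79 with Gria1, Gria3 and Gria4, and Gria2 and Grik5 have the lowest value, -0.76.

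The deviations were also set beside gene length. For each pup, the slope of the deviations of all genes from their means on the log2 of their genomic span was calculated, and is called the length slope. A pup with a positive slope has more reads of long genes. The slope was 0.0046 ± 0.010 in ChR2-flfl and -0.0046 ± 0.0073 in Avil-ChR2 (SD, n = 8 each), with overlap. Pups with a higher slope had more Gria2 (r = 0.74) and less Grik5, the shortest member (r = -0.71). Without the 2 pups farthest out, r was 0.66 and -0.58, and within the runs it was 0.57 and 0.82 for Gria2 and -0.33 and -0.86 for Grik5. Grik2, the longest member, had an r of 0.33, which was 0.49 without these 2 pups, and 0.62 and 0.40 within the runs. Gria4 had 0.54, and Grik3 had -0.54, or -0.20 without these 2 pups. Among the members, r did not follow the span throughout. Gria2, with the highest r, spans 118270 bases. Grik4, with 424725 bases, had -0.24, or 0.13 without these 2 pups, and 0.23 and -0.87 within the runs.

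**Figure D5:**
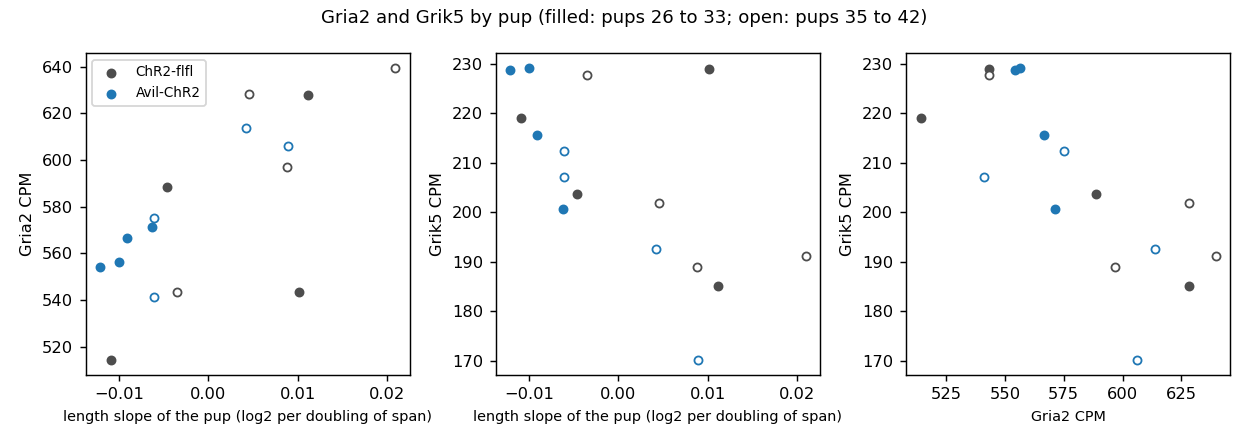
CPM of Gria2 (left) and Grik5 (middle) against the length slope of the pup, and of Grik5 against Gria2 (right), with 1 point per pup, grey for ChR2-flfl and blue for Avil-ChR2, filled for pups 26 to 33 and open for pups 35 to 42. Over all 16 pups, Gria2 spans 514 to 639.6 CPM, both ends being ChR2-flfl pups, and Grik5 spans 170.2 to 229 CPM, both ends being Avil-ChR2 pups.

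With the length slope in the fit, 5 of 9 genotype differences changed sign while staying small. The mean slope itself differed between the genotypes (0.0046 and -0.0046), so that this fit can take up part of a genotype difference. Gria2 was then at 0.044 and Gria1 at 0.0071, Grik3 at -0.076 and Grik5 at -0.088, and Gria3 at 0.020. Grik2 was at -0.069 and Grik1 at -0.061, still the lowest but for Grik3 and Grik5. None of them passed an unadjusted p under 0.05 in that fit.

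Genes that resemble a member were ranked by the same correlation among 15115 genes. The closest to Gria2, the most abundant member, were Tmx3 (r = 0.95), Ptpn4 (r = 0.93) and Vstm2a (r = 0.93). The other AMPA genes stood far down the order for Gria2, with Gria3 at place 2017, Gria4 at 2356 and Gria1 at 5911. The closest to Grik2, the member with the smallest p, were Ttc39b (r = 0.83), Mgat4c (r = 0.82) and Gm29729 (r = 0.81), and Gria4 stood at place 9. In the same order for Grik2, Gria3 stood at place 60, Gria1 at 276 and Gria2 at 1918. The other kainate genes stood at places 2107 (Grik1), 2376 (Grik4), 2666 (Grik3) and 11481 (Grik5).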

How the data were processed

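Cortices of 16 pups at P7 were analyzed, 8 Avil-ChR2 and 8 ChR2-flfl, grouped by the genotype in the labels. Reads no shorter than 50 bp were mapped by the authors with SeqMan NGen on GRCm38 (mm10), counted in ArrayStar for each gene and converted with edgeR into TMM-normalized CPM. The deposited values are these CPM on a linear scale, 1 column per pup. The library kit was stranded, but use of strand in counting is not given in the sources used here. In 100% of cases up to 20000 reads a CPM value was within 0.05 reads of a whole number of reads, from which the reads per pup were taken. No molecular identifiers were used, so that reads bear on counting error only.

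Values were taken as log2 without pseudocount, those missing or below -5 were set to -5, and genes above -5 in at least 12 of 16 pups were kept. Genotypes were compared with limma 3.58.1 in R 4.3.3 (lmFit, eBayes with trend) and Benjamini-Hochberg adjustment over 21183 genes, and single genes with two-sided exact permutation tests (scipy 1.17.1). The limma script was tested on simulated data. Levels per length used GENCODE transcripts of GRCm38. Replicates are separate pups, and the replicate numbers are serial numbers of different animals. Alternatives were another pseudocount, other filters, quantile and median scaling, covariates, subsets of pups and leaving out each pup.

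The members, gene lists and partner genes were chosen with earlier results of these data known. Named are the 9 members, and of each list every gene at an unadjusted p under 0.05 and at most 3 others with the highest mean CPM. Adarb2, the NMDA genes and those without value were named in addition. Of the 6 lists of partner genes, 1 enters the counts over all lists and is not reported here by gene.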

Additional observations from a re-analysis of the deposited data

Results flagged for a closer look

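Among 18 groups of 8 pups (9 members in 2 genotypes), 2 held a pup that stood far from the nearest other pup in relation to the whole range of its group, where chance gives about 1 in 20 groups. Gria4 in Avil-ChR2 replicate 2 was at 82.4 CPM, with a gap of 0.526 of the range. Grik1 in ChR2-flfl replicate 1 was at 50.6 CPM, with a gap of 0.579 of the range. Pups 26 to 33 gave a genotype difference of -0.11 for Gria1 and pups 35 to 42 gave 0.063, a signed change of 0.17 on the log2 scale by an interaction test in limma with an unadjusted p of 0.0234 and an adjusted p of 0.9998, as 1 of 18 interaction tests of the members. The causes of these values were not tested.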

How the results depend on the processing

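None of the 9 members reached an adjusted p under 0.05 in limma in any of the 28 fits, and the lowest was 0.549 (Grik2 without ChR2-flfl replicate 5). The number of members lower at an unadjusted p under 0.05 was 0. It was 1 (Grik2, -0.11, unadjusted p 0.0223, adjusted p 0.926) with the replicate number as a block, and 1 with pups 26 to 33 only (Grik2). It ranged from 0 to 2 when 1 pup was left out, with Grik2 alone without ChR2-flfl replicate 2 or Avil-ChR2 replicate 4, and Grik2 and Gria4 (-0.086, unadjusted p 0.015) without ChR2-flfl replicate 5. The replicate numbers share no animal, and the correlation of deviations between same-numbered pups was -0.344 to 0.389, so that the numbers were not treated as pairs. No other call changed with the block.

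Signs changed with the length slope as a covariate for Gria1 (0.0071), Gria2 (0.044), Gria3 (0.020), Grik3 (-0.076) and Grik5 (-0.088). They changed with pups 35 to 42 only for Gria1 (0.063), Gria3 (0.035), Grik4 (0.079) and Grik5 (-0.051). When 1 pup was left out, Gria3 ranged from -0.034 to 0.0037, Grik3 from -0.037 to 0.044, Grik4 from -0.047 to 0.016 and Grik5 from -0.015 to 0.047. The causes were not tested. Count tests with edgeR and DESeq2 were not run. The least abundant member, Grik4, had 616 reads or more in each pup.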
